A study of Mus musculus with 16 samples.

Results

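A set of 1014 regions carried both H3K4me3 and H3K27me3 in the cells sorted beside the hair follicle stem cells at early anagen, while the stem cells themselves held H3K4me3 without an H3K27me3 peak. Each region is an H3K4me3 peak of nEA-HFSCs that shared at least 1 bp with an nEA-HFSCs H3K27me3 peak and with an EA-HFSCs H3K4me3 peak, and with no EA-HFSCs H3K27me3 peak. They were 1014 of the 24498 nEA-HFSCs H3K4me3 peaks, or 4.14%. The regions were selected on the early anagen lists of both marks, so the early anagen state of any member is a description of the choice and not a result. Of the 2945 nEA-HFSCs H3K4me3 peaks with H3K27me3, the other members were 1601 that were bivalent in both populations and 330 without EA-HFSCs H3K4me3. The reverse choice, bivalent in EA-HFSCs with H3K4me3 alone in nEA-HFSCs, gave 178 EA-HFSCs H3K4me3 peaks.

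EA-HFSCs were bulge cells sorted as CD34+ and α6-integrin+ from dividing bulges of early anagen (PD22 to PD25). LC-HFSCs came from the same gate in the quiescent late catagen bulge (PD38 to PD44). nEA-HFSCs and nLC-HFSCs were the CD34- and α6-integrin+ cells of the same ages, per the study's methods mostly epidermis and lower outer root sheath, and so a mixture of cell types. All came from wild-type CD1 × FVB mice, with 15 to 20 animals pooled for each sort. The labels describe 16 samples, of which 12 have a peak list here (3 histone marks in 4 populations) and the IgG samples have none. Reads of independent experiments were pooled before peaks were called, so there was 1 list per population and mark, no replicate check and no test between populations. Intervals below are 95% Wilson intervals, cover counting error only, and treat neighbouring peaks as independent, which they are not.

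H3K4me3 is written by COMPASS-family methyltransferases at active and poised promoters, and H3K27me3 is written by the Polycomb complex PRC2 with its catalytic subunit Ezh2 and goes with silencing. Promoters with both marks are called bivalent and are best known at developmental regulators in stem cells, where they are held at low expression but can be activated. In adult skin the bulge is the niche of the follicle stem cells, and a small group of transcription factors and secreted Wnt and BMP modulators sets it apart from the epidermis. In sorted cells, both marks at 1 position can lie on the same cells or on different cells of a mixture, and these cannot be told apart here.

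The sort could be checked at Cd34, the gene of the sorted antigen. Its start had H3K4me3 peaks with a MACS score of 3100 in EA-HFSCs and of 1735 in LC-HFSCs, with none in nEA-HFSCs or nLC-HFSCs. It had H3K27me3 peaks with scores of 271 in nEA-HFSCs and 120 in nLC-HFSCs and none in either stem cell list. This score (10 times -log10 of the p-value of a peak) grows with read number and has a ceiling near 3100, so it is read within a list and not between lists. Krt5, a basal keratin, had H3K4me3 in all 4 populations (scores of 3100, 3100, 1663 and 3100 in EA-HFSCs, nEA-HFSCs, LC-HFSCs and nLC-HFSCs). Krt15, a keratin listed here as a bulge marker, did not set the stem cells apart. It had H3K4me3 in all 4 (3100, 3100, 1496 and 3100 in the same order) and no H3K27me3 peak. Of the markers of other cell types, 3 of 18 leukocyte genes had H3K4me3 within 3000 bp of the start in EA-HFSCs and the same number in nEA-HFSCs. For endothelial genes the counts were 9 and 8 of 18, and for dermal fibroblast and papilla genes 18 and 13 of 26. For melanocyte and Schwann cell genes they were 8 and 7 of 15. Over all protein-coding genes they were 13508 and 13341 of 22367. The part of these other cell types in the regions described here was not tested. Itga6, which encodes α6-integrin, had no peak of either mark within 3000 bp of its annotated start in any population.

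The 250 bases before the gene start are shown for 6 genes with a region, to give the kind of promoter at which the populations differed: the bulge genes Sox9, Lhx2, Lgr5, Sfrp1 and Bmp6, and Sox2 from the regions with the highest H3K27me3 scores. They are read 5′ to 3′ in the direction of the gene (plus strand of mm9, for Lgr5 minus strand), with each CpG in capitals. Sox9 and Lhx2 encode transcription factors required for follicle stem cells, Lgr5 marks cycling follicle stem cells, Sfrp1 is a secreted Wnt inhibitor, Bmp6 is a secreted BMP ligand, and Sox2 is a transcription factor of the dermal papilla. The windows were Sox9 chr11:112643288-112643537, Lhx2 chr2:38194551-38194800, Lgr5 chr10:115024837-115025086, Sfrp1 chr8:24521724-24521973, Bmp6 chr13:38436745-38436994 and Sox2 chr3:34548677-34548926, all inside a region (at Lhx2, 242 of the 250 bases).
Sox9: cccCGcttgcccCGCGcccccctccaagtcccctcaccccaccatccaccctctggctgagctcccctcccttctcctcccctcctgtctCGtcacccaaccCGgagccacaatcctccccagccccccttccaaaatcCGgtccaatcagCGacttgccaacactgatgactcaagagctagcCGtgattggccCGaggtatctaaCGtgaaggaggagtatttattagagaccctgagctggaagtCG
Lhx2: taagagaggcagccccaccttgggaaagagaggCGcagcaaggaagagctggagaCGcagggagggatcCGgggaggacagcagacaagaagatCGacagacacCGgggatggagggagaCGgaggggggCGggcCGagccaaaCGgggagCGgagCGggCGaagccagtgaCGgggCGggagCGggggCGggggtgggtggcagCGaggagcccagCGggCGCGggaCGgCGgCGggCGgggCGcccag
Lgr5: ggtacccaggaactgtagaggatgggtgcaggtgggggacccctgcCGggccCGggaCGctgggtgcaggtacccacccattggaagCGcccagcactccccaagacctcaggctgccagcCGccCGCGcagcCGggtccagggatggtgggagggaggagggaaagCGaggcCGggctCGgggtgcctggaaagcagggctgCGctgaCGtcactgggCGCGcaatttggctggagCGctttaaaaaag
Sfrp1: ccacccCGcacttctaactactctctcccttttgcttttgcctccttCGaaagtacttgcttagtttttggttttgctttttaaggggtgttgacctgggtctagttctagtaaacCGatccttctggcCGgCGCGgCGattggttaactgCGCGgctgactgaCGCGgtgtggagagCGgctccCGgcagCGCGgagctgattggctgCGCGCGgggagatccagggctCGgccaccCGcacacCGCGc
Bmp6: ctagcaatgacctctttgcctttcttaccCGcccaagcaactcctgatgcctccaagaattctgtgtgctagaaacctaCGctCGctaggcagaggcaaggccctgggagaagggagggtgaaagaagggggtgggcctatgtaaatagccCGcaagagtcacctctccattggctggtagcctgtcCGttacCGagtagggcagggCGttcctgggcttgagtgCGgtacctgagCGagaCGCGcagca
Sox2: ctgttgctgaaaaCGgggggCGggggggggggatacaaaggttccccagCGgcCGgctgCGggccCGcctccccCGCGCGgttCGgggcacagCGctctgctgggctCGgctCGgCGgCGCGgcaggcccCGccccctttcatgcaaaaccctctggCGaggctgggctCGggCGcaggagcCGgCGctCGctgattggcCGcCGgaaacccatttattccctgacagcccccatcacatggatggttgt

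The 6 windows held 11 CpGs for Sox9, 25 for Lhx2, 16 for Lgr5, 22 for Sfrp1, 11 for Bmp6 and 25 for Sox2. Over the 700 protein-coding genes with a region within 3000 bp of the start, the median was 15 CpGs in these 250 bases, against 16 for genes bivalent in both populations, 15 for genes with H3K4me3 alone in both and 8 over 22362 genes. The letters GGGCGG (the GC box, either strand) were in 62.1% of windows for genes with a region and in 39.6% of all windows. They were in 61.5% for genes bivalent in both and in 58.5% for genes with H3K4me3 alone in both. The letters TATAAA (the TATA box, either strand) were in 6% of windows for genes with a region and in 12.3% of all windows. They were in 7.44% for genes bivalent in both and in 5.96% for genes with H3K4me3 alone in both. Both shares were thus near those of the other H3K4me3 classes. A match is a description of the sequence and not a bound site. Over the whole H3K4me3 peak, the ratio of observed to expected CpG had a median of 0.59 at the regions (middle 50% of values 0.477 to 0.684), 0.661 where both populations were bivalent and 0.497 where both had H3K4me3 alone. On this whole-peak measure the regions lay between the other classes. In the 250 bases before the start the same ratio was 0.667 for genes with a region, 0.673 for genes bivalent in both and 0.731 for genes with H3K4me3 alone in both, so there they did not.

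Of the 1014 regions, 683 (67.4%, 64.4 to 70.2) lay within 3000 bp of the start of a protein-coding gene, near the 65.3% of all 18971 nEA-HFSCs H3K4me3 peaks shared with EA-HFSCs. By the middle of the peak, 36.7% lay in promoters, 17.6% in exons, 26% in introns and 19.7% between genes. For peaks bivalent in both populations these shares were similar (37.7%, 21.7%, 22.7% and 17.7%), and for peaks with H3K4me3 alone in both they were 28.1%, 11.5%, 40.9% and 19.4%. There were 700 genes with a region at the start (3.13% of 22367), of which 33 had more than 1 and Tbx1 had 3. Regions were found on the 19 autosomes and on chromosome X, where 14 of 516 shared H3K4me3 peaks (2.71%) were regions, against 3.7% to 7.15% on the autosomes.

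The nEA-HFSCs H3K4me3 peak of a region was 397 to 17750 bp wide with a median of 1574 bp. H3K27me3 covered a median of 91.7% of it, and 421 regions lay wholly inside an H3K27me3 peak. The H3K27me3 score ran from 40, the lowest score in the list, to 3100 with a median of 139, against 544 at peaks bivalent in both populations, and the H3K27me3 peak had a median width of 3487 bp against 7223 bp. A score of 100 or more in all 3 lists whose overlap was required was reached by 518 regions, and 93 had an H3K27me3 score under 50. The regions are not all separate in the other lists: they overlapped 974 EA-HFSCs H3K4me3 peaks, and 95 shared an nEA-HFSCs H3K27me3 peak with another region.

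The distance to EA-HFSCs H3K27me3 varied widely. The nearest EA-HFSCs H3K27me3 peak was a median of 50762 bp away, and 510 regions had none within 50000 bp. For 110 regions (10.8%) it was within 1000 bp. Just inside the limit were Dennd2a, with an EA-HFSCs H3K27me3 peak 2 bp away, Fam78b (4 bp) and Hrh3 (4 bp). Just outside it were Syt9 and a peak at chr2:66247822-66248410, where an EA-HFSCs H3K27me3 peak overlapped by 4 bp, and a peak at chr4:114338192-114339957 with 6 bp.

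H3K4me3 at these loci was broader in the stem cells. In loci joined across the EA-HFSCs and nEA-HFSCs lists, H3K4me3 spanned a median of 2346 bp in EA-HFSCs and 1655 bp in nEA-HFSCs at 920 loci with a region, a median ratio of 1.35, and was wider in EA-HFSCs at 91.1% of them. The median ratio was 1.29 where both populations were bivalent and 1.15 where both had H3K4me3 alone, so EA-HFSCs peaks were broader in every class. Both lists took part in the choice, so these widths are a description.

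**Figure D1:**
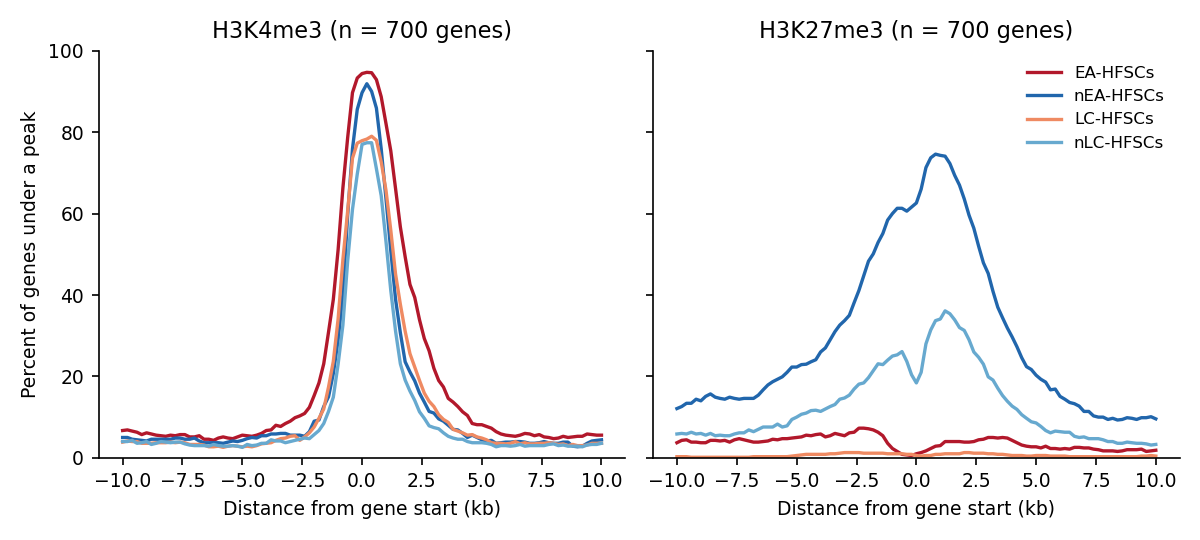
Percent of the 700 protein-coding genes with a region at the start that lie under an H3K4me3 (left) or H3K27me3 (right) peak at each distance from the gene start in kb, in 4 populations, with the direction of transcription to the right. H3K4me3 peaks at the start in all 4 populations (77% to 94.4%), while H3K27me3 is high in nEA-HFSCs, lower in nLC-HFSCs and near 0 at the start in EA-HFSCs and LC-HFSCs. The early anagen contrast in H3K27me3 is set by the choice of regions and is not a result.

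At the start itself, 94.4% of the 700 genes were under H3K4me3 in EA-HFSCs, 89.7% in nEA-HFSCs, 77.9% in LC-HFSCs and 77% in nLC-HFSCs. H3K27me3 lay over the start of 62.6% in nEA-HFSCs and reached 74.6% at 800 bp downstream. In nLC-HFSCs the start was covered at 18.4% of genes and the highest value, 36.1%, lay 1200 bp downstream. The nLC-HFSCs mark thus covered fewer genes at the start than 1200 bp downstream. EA-HFSCs H3K27me3 covered the start of 1% of these genes and at most 7.29% (at -2400 bp), and LC-HFSCs H3K27me3 at most 1.29%. The early anagen contrast in H3K27me3 follows from the choice of regions. At the start of 1090 genes bivalent in both populations, H3K27me3 covered 59.5% in nLC-HFSCs and 19.3% in LC-HFSCs.

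The catagen lists were not used to choose the regions, and they addressed whether the difference between stem and non-stem cells is also seen when the bulge is quiescent. H3K27me3 of nLC-HFSCs overlapped 467 of the 1014 regions (46.1%, 43 to 49.1), against 10.2% of all shared H3K4me3 peaks. H3K27me3 of LC-HFSCs overlapped 15 (1.48%, 0.898 to 2.43), against 2.53%. At peaks bivalent in both early anagen populations these shares were 87.2% and 28.4%, and at peaks with H3K4me3 alone in both they were 0.266% (43 of 16179) and 0.00618% (1 of 16179). The regions had nLC-HFSCs H3K27me3 more often than LC-HFSCs H3K27me3.

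The catagen lists differed in length, with 1909 H3K27me3 peaks in LC-HFSCs and 15273 in nLC-HFSCs, against 25534 in EA-HFSCs and 17488 in nEA-HFSCs. When each pair of lists was cut to the same number of top-scoring peaks, the rule chose 1017 regions (956 of them among those described here), of which 8.95% had nLC-HFSCs H3K27me3 and 1.47% had LC-HFSCs H3K27me3, against 4.62% and 2.42% of all shared H3K4me3 peaks. The lists hold no read counts. Per the study's methods LC-HFSCs had more reads than EA-HFSCs and H3K27me3 was not saturated. A missing LC-HFSCs peak therefore means that none passed the authors' threshold. The same holds for the missing EA-HFSCs H3K27me3 peak by which the regions were chosen.

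H3K4me3 was found at most regions at catagen. It overlapped 829 regions in nLC-HFSCs (81.8%, 79.3 to 84), against 86.5% of all shared H3K4me3 peaks, and 736 in LC-HFSCs (72.6%, 69.8 to 75.2), against 76.5%. Peaks bivalent in both populations had lower shares, 71.2% in nLC-HFSCs and 49.3% in LC-HFSCs, and peaks with H3K4me3 alone in both had 88.3% and 79.6%.

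**Figure D2:**
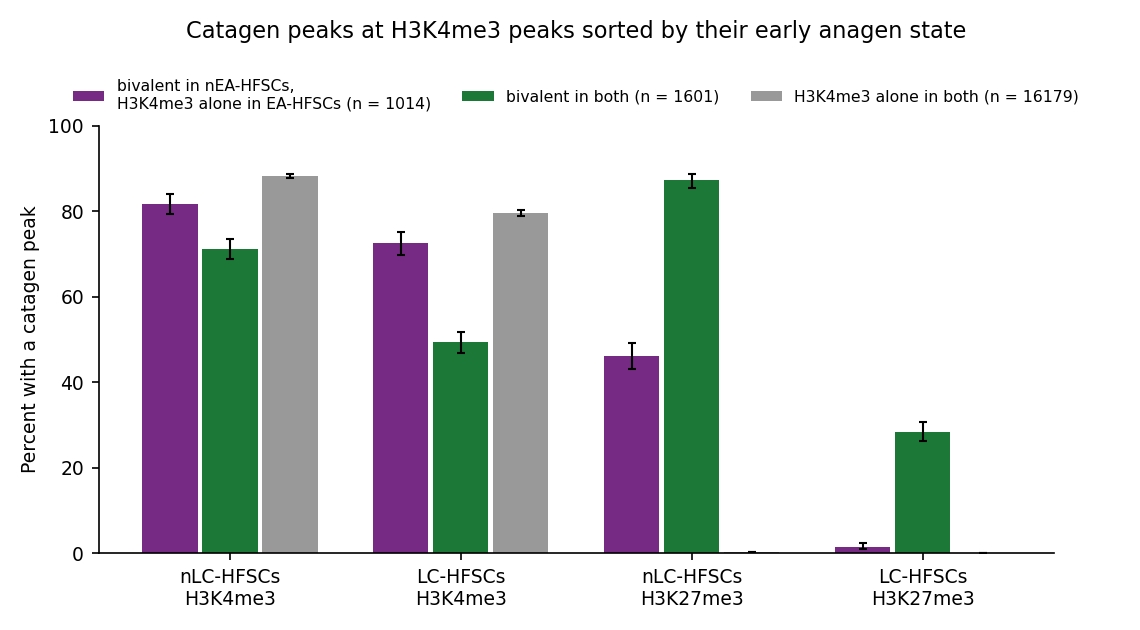
Percent of nEA-HFSCs H3K4me3 peaks that overlap a peak of each catagen list (H3K4me3 and H3K27me3 of nLC-HFSCs and LC-HFSCs), for 3 classes set by the early anagen lists. Bars give the share and error bars its 95% Wilson interval. The regions (purple) have nLC-HFSCs H3K27me3 at 46.1% and LC-HFSCs H3K27me3 at 1.48%, between the class bivalent in both and the class with H3K4me3 alone in both.

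The full early anagen pattern, both marks outside the stem cells and H3K4me3 alone in them, was seen again at catagen in 290 regions (28.6%, 25.9 to 31.5), against 3.89% of all shared H3K4me3 peaks. Peaks bivalent in both early anagen populations had this catagen state nearly as often (413 of 1601, 25.8%, 23.7 to 28). The state was therefore not particular to the regions. The most frequent catagen state was H3K4me3 alone in both populations (378 regions, 37.3%), against 68.9% of all shared H3K4me3 peaks. In nLC-HFSCs, 369 regions (36.4%) had both marks, 460 (45.4%) H3K4me3 alone, 98 (9.66%) H3K27me3 alone and 87 (8.58%) neither. For all shared peaks these shares were 7.35%, 79.2%, 2.87% and 10.6%. In LC-HFSCs, 727 (71.7%) had H3K4me3 alone and 272 (26.8%) neither, near the 75.3% and 22.2% of all shared peaks.

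The share with nLC-HFSCs H3K27me3 went with the early anagen score. It was 13.4% (9.74 to 18.1) of the 254 regions with nEA-HFSCs H3K27me3 scores of 40 to 70.3 and 32.7% (27.2 to 38.7) of the 254 with 70.6 to 140. It was 57.7% (51.5 to 63.6) of the 253 with scores up to 294 and 80.6% (75.3 to 85) of the 253 with 295 or more. The full pattern was seen in 7.48%, 20.5%, 35.2% and 51.4% of the same groups. In the group of lowest scores the share was still above the 0.266% of peaks with H3K4me3 alone in both.

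**Figure D3:**
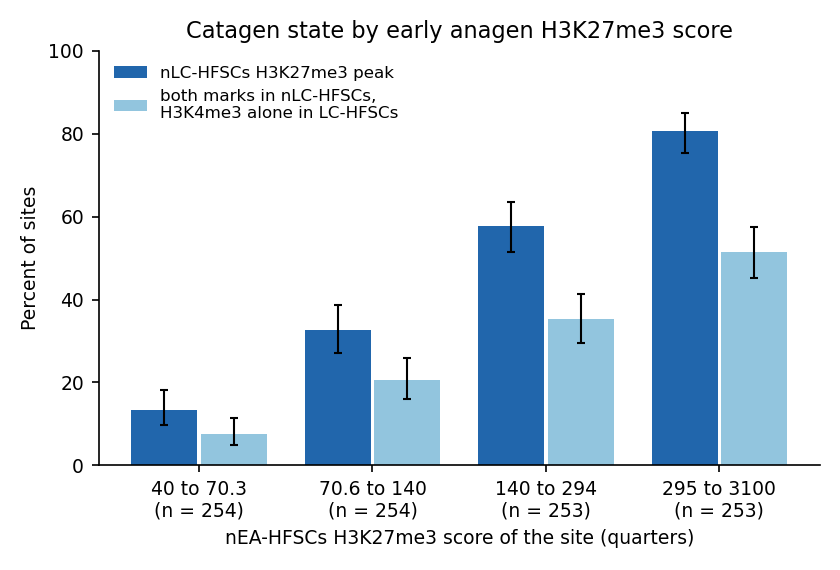
Percent of regions with an nLC-HFSCs H3K27me3 peak (dark) and with the early anagen pattern again at catagen (light), in 4 groups of equal size by nEA-HFSCs H3K27me3 score, with 95% Wilson intervals. Both shares are higher in each next group, from 13.4% to 80.6% and from 7.48% to 51.4%.

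The genes of the set were compared with lists of the study that came from earlier mRNA microarrays and not from these peaks. GUB genes are those with higher mRNA in the bulge at all hair cycle stages, GDB genes those with lower mRNA in the bulge, and a further list holds genes of constant expression. A region lay at the start of 78 of 218 GUB genes (35.8%, 29.7 to 42.3), 0 of 99 GDB genes (0%, upper limit 3.74%) and 2 of 417 constant genes (0.48%, 0.132 to 1.73), against 3.13% of all genes. The constant genes were Dst and Pdzd2. Among genes with H3K4me3 at the start in both early anagen populations, a region lay at 41.3% of 189 GUB genes and at 5.38% of 13020 genes of any kind. In contrast, starts bivalent in both populations were found at 2.29% of GUB genes, 10.1% of GDB genes and 4.87% of all genes.

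H3K27me3 lay within 3000 bp of the start of 18 GUB genes in EA-HFSCs, 102 in nEA-HFSCs, 4 in LC-HFSCs and 79 in nLC-HFSCs. For the 99 GDB genes the counts were 24, 12, 1 and 7. Over all 22367 genes they were 2918, 3480, 758 and 2663. The differences between the lists were not tested. These counts depend on list length, with 1909 LC-HFSCs H3K27me3 peaks against 25534 in EA-HFSCs. The paper used another measure, IgG-normalized read signal around the start. By that measure it reported higher H3K27me3 in LC-HFSCs than in EA-HFSCs at a sizeable fraction of GUB genes, so the counts here do not address that result. Of the 78 GUB genes with a region, 47 had the same pattern again at catagen, 5 more (Adcy1, Kcnh1, Klhl22, Lhx2 and Mgat4a) had nLC-HFSCs H3K27me3 without it, and 26 had no nLC-HFSCs H3K27me3.

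The 87 regions at GUB genes had nLC-HFSCs H3K27me3 at 67.8% (59 regions), and the 596 regions at other gene starts at 45.5% (271). LC-HFSCs H3K4me3 was found at 86 of the 87 and at 469 of the 596, and nLC-HFSCs H3K4me3 at 80 and 513. At gene starts with H3K4me3 alone in both populations, LC-HFSCs H3K4me3 was found at 112 of 115 GUB peaks and 9650 of 10304 others. A high share at GUB genes was thus not particular to the regions. The median percentile of the H3K4me3 score within its own list was 89.9 in EA-HFSCs and 52.5 in nEA-HFSCs at GUB regions, and 59 and 50.8 at regions of other genes. At catagen the GUB percentiles were 79.7 in LC-HFSCs and 43.3 in nLC-HFSCs, and those of other genes 42.3 and 38.7. A high rank in the stem cells was also seen at 115 peaks of GUB genes with H3K4me3 alone in both populations (84.5 in EA-HFSCs and 57.8 in nEA-HFSCs). The difference of rank between the stem and non-stem lists was present at GUB genes of both kinds.

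**Figure D4:**
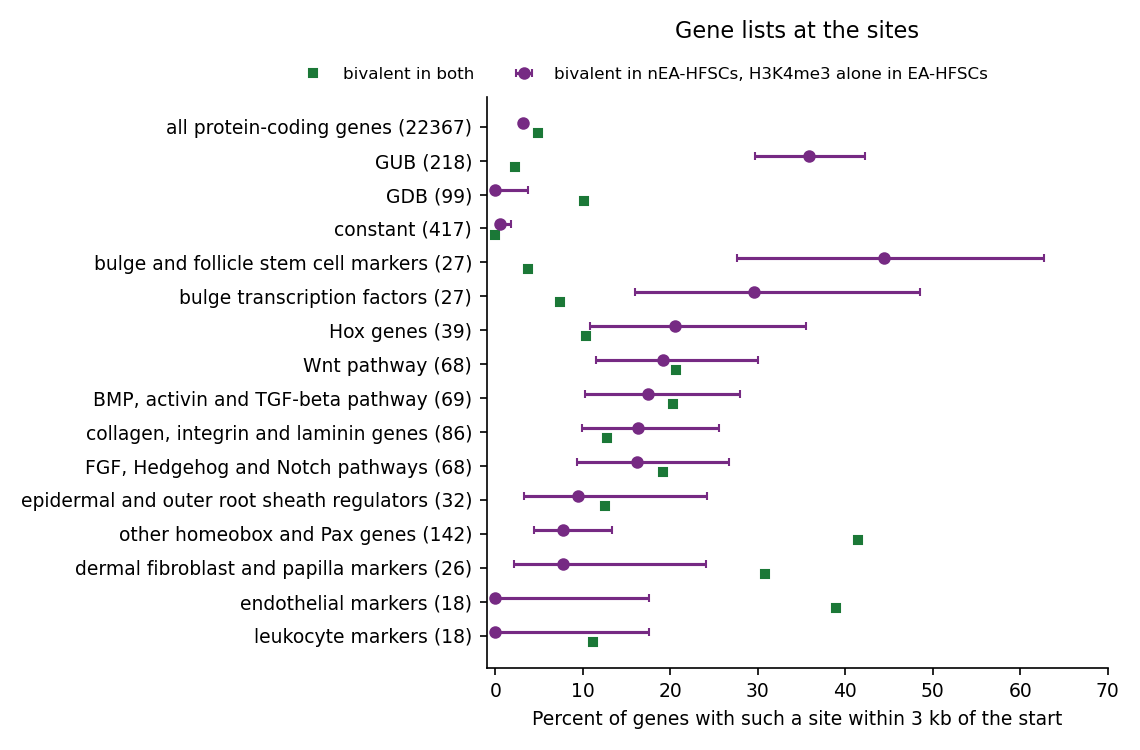
Percent of the genes of each list (number of genes in parentheses) with a region within 3 kb of the start (circles, with 95% Wilson intervals) and with a start bivalent in both populations (squares). GUB genes (35.8%) and bulge markers (44.4%) are far to the right of all protein-coding genes (3.13%) for the regions, while homeobox and Pax genes outside the Hox clusters are to the right for starts bivalent in both (41.5%).

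Of 27 bulge transcription factors, 8 had a region (29.6%, 15.9 to 48.5, against 3.13% of all genes): Sox9, Lhx2, Gli1, Gli2, Foxc1, Tbx1, Hoxc8 and Zfhx3. Their 10 regions all had LC-HFSCs H3K4me3, and 8 had nLC-HFSCs H3K27me3, against 72.6% and 46.1% of all regions. These regions are not independent, since 3 of them lie at Tbx1. Counted by gene, 6 of the 8 had nLC-HFSCs H3K27me3. The region at Lhx2 (chr2:38194559-38196909, over the promoter) had H3K4me3 scores of 3100 in EA-HFSCs, 306 in nEA-HFSCs and 272 in LC-HFSCs, with no nLC-HFSCs peak. Its H3K27me3 scores were 845 in nEA-HFSCs and 1265 in nLC-HFSCs, with none in either stem cell list. The start of Lhx2 was therefore bivalent in nEA-HFSCs and had H3K27me3 alone in nLC-HFSCs. A further region in an intron of Lhx2 (chr2:38205373-38213337, 7965 bp) scored 3100, 1198, 1454 and 908 for H3K4me3 in EA-HFSCs, nEA-HFSCs, LC-HFSCs and nLC-HFSCs, and 97.3 in nEA-HFSCs and 1836 in nLC-HFSCs for H3K27me3.

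At Sox9 (chr11:112641759-112648309), the H3K4me3 scores were 3100 in EA-HFSCs, nEA-HFSCs and nLC-HFSCs and 1079 in LC-HFSCs, and H3K27me3 scored 69.7 in nEA-HFSCs and 350 in nLC-HFSCs. Sox9 had H3K4me3 in all 4 populations and H3K27me3 in the non-stem populations. Tbx1, a T-box factor of the bulge, had 3 regions between chr16:18583450 and 18592317 with H3K27me3 scores of 752 to 911 in nEA-HFSCs and 315 to 323 in nLC-HFSCs. The region at Foxc1 (chr13:31897440-31905503, 8064 bp) scored 83.8 and 256 for H3K27me3 in the same lists. Gli1 and Gli2, the transcriptional effectors of Hedgehog signalling, had low nEA-HFSCs H3K27me3 scores (96 and 114), with 63.9 in nLC-HFSCs at Gli2 and no peak at Gli1.

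Of 27 bulge and follicle stem cell markers, 12 had a region (44.4%, 27.6 to 62.7, against 3.13% of all genes), and 7 of the 12 also had nLC-HFSCs H3K27me3 there, which overlapped 46.1% of all regions. At Lgr5 (chr10:115022036-115025227) the H3K4me3 scores were 3100 in EA-HFSCs, 399 in nEA-HFSCs, 320 in LC-HFSCs and 123 in nLC-HFSCs, and the H3K27me3 scores 683 in nEA-HFSCs and 205 in nLC-HFSCs. Igfbp5, a binding protein of insulin-like growth factors, had a region over the start (chr1:72919701-72921835) with H3K27me3 at 816 in nEA-HFSCs and 504 in nLC-HFSCs. Lgr5 and Igfbp5 had the same pattern at both stages. Bmp6 (chr13:38436566-38437738) had an nEA-HFSCs H3K27me3 score of 1129 and no nLC-HFSCs peak, and an EA-HFSCs H3K27me3 peak lay 267 bp away. Dkk3, a secreted member of the Dickkopf family, had an nEA-HFSCs H3K27me3 score of 41.7 over 30.9% of the region, near the floor of the list. At Cd200, a surface marker of bulge cells, the score was 109 in nEA-HFSCs with no nLC-HFSCs peak.

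**Figure D5:**
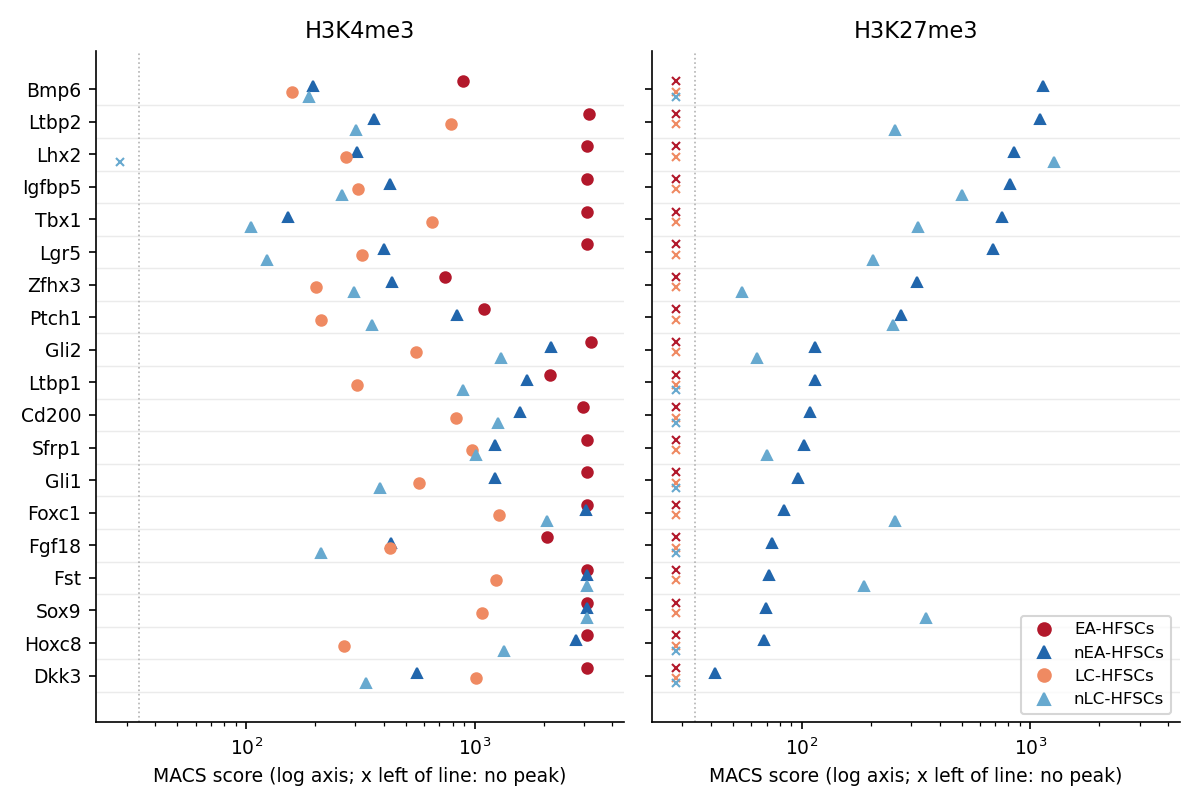
MACS scores of H3K4me3 (left) and H3K27me3 (right) peaks at the regions of 19 bulge genes in 4 populations (circles EA-HFSCs and LC-HFSCs, triangles nEA-HFSCs and nLC-HFSCs), on a log axis, ordered by nEA-HFSCs H3K27me3 score and taking the region nearest the start where a gene has several, with crosses for no peak. The right panel has no circle: the EA-HFSCs absence is fixed by the choice of regions, and no LC-HFSCs H3K27me3 peak overlapped the plotted regions. Scores are read within a list only.

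Among 68 Wnt pathway genes, 13 (19.1%, against 3.13% of all genes) had a region: the ligands Wnt1, Wnt7b and Wnt9a, the receptors Fzd4, Fzd9, Lgr5, Ror1 and Ror2, and the modulators Dact1, Dact2, Dkk3, Nkd1 and Sfrp1. A further 14 were bivalent in both populations. At Sfrp1 (chr8:24520956-24525385) H3K27me3 scored 102 in nEA-HFSCs and 70.5 in nLC-HFSCs, and H3K4me3 was found in all 4 populations (3100, 1223, 971 and 1012 in EA-HFSCs, nEA-HFSCs, LC-HFSCs and nLC-HFSCs). Ror2, a receptor of non-canonical Wnt ligands, had no nLC-HFSCs H3K4me3 but H3K27me3 scores of 381 in nEA-HFSCs and 1034 in nLC-HFSCs.

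Among 69 BMP, activin and TGF-beta genes, 12 (17.4%, against 3.13% of all genes) had a region. They included the ligands Bmp6, Gdf10, Inhbb and Tgfb2, the secreted antagonists Grem1, Fst and Fstl1, the latent TGF-beta binding proteins Ltbp1, Ltbp2 and Ltbp4, the pseudoreceptor Bambi and the inhibitory Smad6. At Grem1 (chr2:113596966-113599226) the H3K4me3 scores were 3100, 152, 883 and 445 in EA-HFSCs, nEA-HFSCs, LC-HFSCs and nLC-HFSCs, and H3K27me3 scored 344 in nEA-HFSCs and 735 in nLC-HFSCs. Fst had H3K27me3 scores of 71.9 and 186 in the same lists.

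Of 68 FGF, Hedgehog and Notch genes, 11 (16.2%, against 3.13% of all genes) had a region. The Hedgehog members included the ligand Dhh, the receptor Ptch1 and the effectors Gli1 and Gli2. The FGF members were Fgf11, Fgf13, Fgf16 and Fgf18 and the feedback inhibitor Spry4, and Heyl is a Notch target. Ptch1, itself a target of Hedgehog signalling, had H3K27me3 scores of 272 in nEA-HFSCs and 250 in nLC-HFSCs. Fgf18 had 74 in nEA-HFSCs, over 9.8% of the region, and no nLC-HFSCs peak.

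Of 86 collagen, integrin and laminin genes, 14 (16.3%) had a region, among them the basement membrane collagens Col4a1, Col4a2, Col4a3 and Col4a4 and the fibrillar Col1a1, Col5a1 and Col5a2. At Col5a2, also a GUB gene, H3K27me3 scored 88.3 in nEA-HFSCs and 71.1 in nLC-HFSCs. Of 248 ion channel and neurotransmitter receptor genes, 14 (5.65%, 3.39 to 9.25) had a region, of 368 solute carriers 12 (3.26%, 1.88 to 5.61) and of 340 zinc finger genes named Zfp 5 (1.47%, 0.63 to 3.4). The share of all genes, 3.13%, lay inside the intervals of the solute carriers and the Zfp genes.

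Among developmental regulators, 8 of 39 Hox genes had a region (20.5%, 10.8 to 35.5). The widest of all regions (chr6:52155066-52172815, 17750 bp) covered or neighboured the starts of Hoxa3, Hoxa5, Hoxa6 and Hoxa7, with H3K4me3 scores of 141 in EA-HFSCs, 510 in nEA-HFSCs, 327 in LC-HFSCs and 3100 in nLC-HFSCs. Its H3K27me3 scores were 1291 in nEA-HFSCs and 1557 in nLC-HFSCs, and an EA-HFSCs H3K27me3 peak lay 627 bp away. Of 142 other homeobox and Pax genes, 11 had a region (7.75%, 4.38 to 13.3) and 59 (41.5%) were bivalent in both populations. A region was also found at 2 of 43 forkhead genes (4.65%), 3 of 18 Sox genes (16.7%), 1 of 16 T-box genes (6.25%), 2 of 70 GATA, KLF and bHLH regulators (2.86%), 4 of 77 axon guidance and Eph genes (5.19%) and 3 of 59 protocadherins and cadherins (5.08%). The 3.13% of all genes lay inside the interval of each of these lists except the Sox genes (5.84 to 39.2).

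Of 32 epidermal and outer root sheath regulators, 3 (9.38%, 3.24 to 24.2) had a region: Prdm1, Msx2 and Dlx3. The share of all genes, 3.13%, lay just below this interval. Prdm1, a repressor with a role in keratinocyte and sebaceous differentiation, had nEA-HFSCs H3K27me3 at 815 and nLC-HFSCs H3K27me3 at 349, with H3K4me3 in all 4 populations. Dlx3, also a GUB gene, scored 58.2 in nEA-HFSCs and had no nLC-HFSCs peak. Of the markers of other cell types, a region was found at 2 of 26 dermal genes (Col1a1 and Sox2, 7.69%, 2.14 to 24.1). It was found at 0 of 18 endothelial, 0 of 15 melanocyte and Schwann cell and 0 of 18 leukocyte genes. These counts of 0 allow up to 17.6%, 20.4% and 17.6%. The 3.13% of all genes lay inside the interval of each of these cell type lists. At Sox2 (chr3:34547856-34549275) H3K4me3 scored 238 in EA-HFSCs and 121 in nEA-HFSCs with no catagen peak, and H3K27me3 scored 1319 in nEA-HFSCs and 976 in nLC-HFSCs.

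The 10 regions at a gene start with the highest nEA-HFSCs H3K27me3 score were at Isl2 (3100), Mfge8 (1735), Irx1 (1351, at 2 regions that share 1 H3K27me3 peak, 1 of them with only 0.362% of its length covered), Egflam (1324), Sox2 (1319), Hoxa3 (1291), Irx3 (1155), Irx6 (1144) and Bmp6 (1129). Of these, 4 had an EA-HFSCs H3K27me3 peak within 1000 bp, including Isl2 (28 bp away) and Irx6 (64 bp away), and 6 had nLC-HFSCs H3K27me3. The choice by peak overlap therefore also took in regions at the edge of EA-HFSCs H3K27me3 domains. Of the 87 regions at GUB genes 7 had such a peak within 1000 bp, and of the 10 regions at bulge transcription factors none had.

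Among regions at a gene start, the same pattern at both stages with the highest nLC-HFSCs H3K27me3 scores was found at Hoxa3 (1557), Ephb1 (1070), Spry4 (831, at a region shared with the start of Arhgap26), Grem1 (735), Trib2 (682), Dhh (654), Kcnc4 (628), Chst11 (620), Kctd1 (554) and Igfbp5 (504). Ephb1 encodes an ephrin receptor, Trib2 a pseudokinase and Chst11 a chondroitin sulfotransferase. Grem1, Kcnc4, Chst11 and Igfbp5 are GUB genes.

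The 15 regions with LC-HFSCs H3K27me3 had low scores in that list, 42.1 to 131 with a median of 49.2. The highest was at Wnt1 (131), followed by Paqr9 (103), the neural adhesion gene Ncam1 (69.5) and Dmrt3 (68.4), and all 4 also had nLC-HFSCs H3K27me3 (807, 389, 785 and 1902). The only region with LC-HFSCs and without nLC-HFSCs H3K27me3 lay between chr3:97671160 and 97672441 at no gene start, with an LC-HFSCs score of 49.2 and an EA-HFSCs H3K27me3 peak 44 bp away.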

How the data were processed

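Peak lists of H3K4me3 and H3K27me3 from sorted mouse skin cells were used, 1 per population and mark. Per the labels and the study's methods, the authors digested chromatin with MNase, trimmed reads with Trimmomatic 0.22, aligned them to mm9 with Bowtie2, pooled replicates and called peaks with MACS 1.4 against IgG of the same population. The deposited score of each peak is 10 times the negative log10 of its p-value. Per the methods, H3K27me3 detection was not saturated and the catagen stem cell library was read more deeply than the anagen one. The lists hold no read counts.

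Overlaps of at least 1 bp were computed with Python 3.11.15 and numpy 2.4.6, and tested on simulated peaks against bedtools 2.31.1. Genes were the 22367 protein-coding genes of GENCODE vM1 on NCBIM37, the assembly of mm9. Symbols of the study's lists were matched to these genes (218 GUB and 99 GDB). The regions, gene lists and tests of this report were chosen with earlier results of these data known. Named regions were the 10 with the highest nEA-HFSCs H3K27me3 score at a gene start, those at genes of the bulge, epidermal, other cell type, GUB and GDB lists, up to 4 per other list, up to 10 with LC-HFSCs H3K27me3, the 3 nearest each side of the limit, the 10 strongest at a gene start with the same catagen pattern and the 5 widest. Other members of a list are named without values. Of the list members, 1 gene is counted but not reported here. Alternatives were a score of at least 50 or 100, 50% cover, a gap of 1000 or 5000 bp to EA-HFSCs H3K27me3, equal numbers of top-scoring peaks, merged peaks, the 19 autosomes and the gene start itself.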

Additional observations from a re-analysis of the deposited data

Results flagged for a closer look

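H3K9me3, which the comparisons above did not use, overlapped 28% of the regions in EA-HFSCs (284 of 1014, 25.3 to 30.9). The value was listed because the mark took no part in those comparisons. The IgG controls, against which the authors called the peaks, have no list of their own here. It overlapped 71.5% of peaks bivalent in both populations and 45.5% of peaks with H3K4me3 alone in both, so the regions had the lowest share of these 3 classes. In nEA-HFSCs H3K9me3 overlapped 8 regions (0.789%), in LC-HFSCs 0 and in nLC-HFSCs 48 (4.73%). Over all shared H3K4me3 peaks the H3K9me3 shares were 46.9% in EA-HFSCs, 0.559% in nEA-HFSCs, 0.0422% in LC-HFSCs and 9.3% in nLC-HFSCs. Regions with EA-HFSCs H3K9me3 lay at a gene start at 78.2% and the other 730 at 63.2%, and nLC-HFSCs H3K27me3 overlapped 47.5% and 45.5% of them. The H3K9me3 lists differed in length, with 42277 peaks in EA-HFSCs, 17873 in nEA-HFSCs, 1414 in LC-HFSCs and 18236 in nLC-HFSCs. Per the study's methods H3K9me3 detection was not saturated, so the shares are not compared between populations. At the 284 regions the EA-HFSCs H3K9me3 score had a median of 66.8, with 40 the lowest in that list. No replicate check of these shares was possible.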

How the results depend on the processing

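No paired analysis was possible because the replicates were pooled before peaks were called and each population and mark has 1 list. Of 58 recomputed values, 47 stayed within 1.5 times the main count or inside the interval of the main share, and 11 did not. With equal numbers of top-scoring peaks, the regions with nLC-HFSCs H3K27me3 were 8.95% and those with the same pattern at catagen 4.62%. That setting cut the longer list of every pair at once, the nLC-HFSCs H3K27me3 list to 1909 peaks and the nLC-HFSCs H3K4me3 list to 14718, and their parts were not separated. With all peaks scoring 100 or more, LC-HFSCs H3K27me3 was found at 0.586%, LC-HFSCs H3K4me3 at 57.7%, the same pattern at 21.7%, a gene start at 75.5% and GUB genes with a region at 27.1%, and with 50 or more LC-HFSCs H3K27me3 was found at 0.729%. With 50% of the peak covered, nLC-HFSCs H3K27me3 was found at 37.1% and the same pattern at 19.3%. Regions that cover the gene start itself were 56%. The cause was not tested. The number of regions ranged from 683 to 1017. Leaving out a replicate was not possible with pooled lists, and the lists hold no read counts behind a peak.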
